A study of Mus musculus with 10 samples.

Results

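The 9 genes described here encode the core of the Nodal pathway, namely the ligands Nodal and Gdf3, the coreceptor Tdgf1, the inhibitors Lefty1 and Lefty2, the receptors Acvr1b and Acvr2b, the signal transducer Smad2 and its nuclear partner Foxh1. They were picked by name out of the 55487 genes of the count tables. All 9 were found once by symbol and Ensembl identifier, and all 9 passed the filter on low counts that left 22596 genes for testing.

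Nuclear RNA was sequenced from HM-1 mouse ES cells and from the cells they form on the way to blood in serum culture. ES cells were kept in serum with LIF. The hemangioblast stage (HB) consisted of cells bearing FLK1, the VEGF receptor encoded by Kdr, taken with magnetic beads from embryoid bodies after 3 days without LIF. Hemogenic endothelium at its first (HE1, KIT+ TIE2+ CD41-) and second (HE2, KIT+ TIE2+ CD41+) stage and hematopoietic progenitors (HP, KIT+ TIE2- CD41+) were sorted by flow cytometry after a further 2.5 days of blast culture of HB cells with serum, VEGF, IL-6 and D4T cell conditioned medium. All 5 groups derive from 1 ES cell line, used for gene targeting, with 2 libraries per stage and 10 in all. The labels only number the libraries of a stage, and the study describes its expression replicates as biologically independent.

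Nodal is a secreted member of the TGF-beta family that holds the primed state of pluripotency and later induces mesoderm and endoderm in the primitive streak. With its coreceptor it binds a complex of type I and type II activin receptors, which phosphorylates SMAD2 and SMAD3. These enter the nucleus with SMAD4 and act on DNA with partners such as FOXH1. Nodal, Lefty1 and Lefty2 are themselves among the known targets of the pathway, and the Lefty proteins bind Nodal and its coreceptor and so limit its range. Receptors and SMADs also serve other ligands.

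Libraries held between 24920434 and 58782055 counts. Levels are given as CPM, a gene's counts scaled to a fixed library total after TMM scaling, and 3 counts, taken as the floor of detection, correspond to 0.0532 to 0.126 CPM; this floor covers counting error only. Marker levels were compared with the labels. The 12 ES cell markers summed to 3720 and 3667 CPM in ES cells, 6 FLK1+ mesoderm markers to 1529 and 1936 CPM in HB against 11.9 and 12 CPM in ES cells, and 7 blood markers to between 1020 and 1469 CPM in HE2 and HP against 317 CPM or less before. Itga2b, which encodes CD41, was at 227 and 127 CPM in HE1, sorted as CD41-, above the 48.0 and 34.5 CPM of HB (called by edgeR) and below the 505 and 469 CPM of HE2. Tek, which encodes TIE2, was at 285 and 159 CPM in HE2 and at 61.5 and 64.2 CPM in HP, sorted as TIE2-, a change that was not called (adjusted p = 0.0722 by edgeR). Stromal markers, which a sort for KIT and TIE2 or CD41 should not enrich, summed to between 738 and 1802 CPM in HE1, HE2 and HP against 159 CPM or less in ES cells and HB, with none of the 7 genes at 0. RNA was measured in bulk, so that fewer cells with a transcript and less of it per cell cannot be told apart.

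The libraries of HE1 stood apart from each other in the markers of several cell types. In HE1 replicate 2, 9 of the 12 ES cell markers were between 3.66 and 17.7 times as high as in HE1 replicate 1, whereas Klf4, Dppa4 and Tbx3 were not higher. Pou5f1, which encodes OCT4, was at 2.82 CPM in replicate 1 and 26.3 CPM in replicate 2, and Sox2 was at 0.715 and 9.28 CPM. None of the 12 markers was at 0 in any library. The median marker stood at 0.422% of its ES level in HE1 replicate 1 and at 3.79% in HE1 replicate 2, and at 0.264%, 0.214%, 0.487% and 0.106% in the libraries of HE2 and HP. Markers of other cells differed as well. The 6 endothelial markers summed to 3197 CPM in HE1 replicate 1 and 1875 CPM in replicate 2, and the 7 stromal markers to 1009 and 1802 CPM, with Col1a1, a fibroblast collagen gene, at 176 and 671 CPM. The part of any of these markers in the results below was not tested, and the changes between HB and HE1 are given without HE1 replicate 2 where this moved them by over 1.5 times.

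Nodal pathway RNA was dominated in ES cells by the coreceptor and the inhibitors. On the scale of CPM per kb of exons, which allows levels of different genes to be compared, Tdgf1 was highest in ES cells with a mean of 332, followed by Lefty2 at 177, Lefty1 at 124, Nodal at 62.6 and Gdf3 at 52.3. Foxh1 at 31.6, Acvr2b at 26.9, Acvr1b at 19.98 and Smad2 at 8.24 were lower. Together, Tdgf1, Lefty1 and Lefty2 made up 39.8%, 14.9% and 21.2% of the summed level of the 9 genes. In HB the order had changed to Tdgf1 at 125, Foxh1 at 85.5, Acvr2b at 28.2, Acvr1b at 21.0 and Lefty2 at 18.7, with Nodal at 6.38. In HP only Acvr1b at 19.3, Foxh1 at 14.9, Smad2 at 11.9 and Acvr2b at 7.57 were above 1 CPM per kb.

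**Figure D1:**
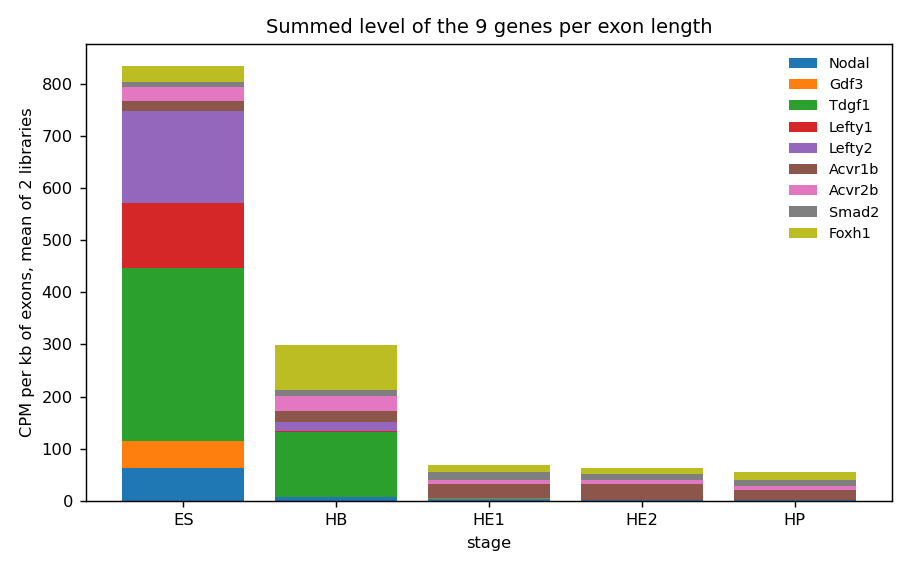
Summed level of the 9 genes in each stage on a linear axis of CPM per kb of exons, each segment being the mean of 2 libraries for 1 gene. Tdgf1 filled 39.8% of the column in ES cells and 42.1% in HB but 2.79% in HE1, where Acvr1b was the largest segment with 39.4%.

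The promoters of 4 members could be read, and they are shown because the levels of these genes took different courses. Each runs from 250 bases before to 50 bases after the RefSeq gene start on GRCm38.p6, read 5′ to 3′ on the strand of the gene, with capitals marking the pentamer CAGAC, bound by SMAD3 and SMAD4, on either strand. The promoter of Nodal lies at chr10:61417722-61418021 on the plus strand, that of Tdgf1 at chr9:110946109-110946408 on the minus strand, that of Acvr1b at chr15:101173822-101174121 on the plus strand and that of Acvr2b at chr9:119401928-119402227 on the plus strand.
Nodal: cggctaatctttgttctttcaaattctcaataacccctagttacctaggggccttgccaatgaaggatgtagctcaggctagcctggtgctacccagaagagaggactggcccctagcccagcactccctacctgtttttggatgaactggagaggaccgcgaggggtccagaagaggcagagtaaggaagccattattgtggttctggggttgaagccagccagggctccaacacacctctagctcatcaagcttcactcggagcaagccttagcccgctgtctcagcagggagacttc
Tdgf1: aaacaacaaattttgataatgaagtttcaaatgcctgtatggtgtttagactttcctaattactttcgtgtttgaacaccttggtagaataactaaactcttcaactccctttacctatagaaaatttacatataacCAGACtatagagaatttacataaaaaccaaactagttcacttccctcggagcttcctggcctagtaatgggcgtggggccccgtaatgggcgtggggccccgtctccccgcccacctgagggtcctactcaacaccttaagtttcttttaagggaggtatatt
Acvr1b: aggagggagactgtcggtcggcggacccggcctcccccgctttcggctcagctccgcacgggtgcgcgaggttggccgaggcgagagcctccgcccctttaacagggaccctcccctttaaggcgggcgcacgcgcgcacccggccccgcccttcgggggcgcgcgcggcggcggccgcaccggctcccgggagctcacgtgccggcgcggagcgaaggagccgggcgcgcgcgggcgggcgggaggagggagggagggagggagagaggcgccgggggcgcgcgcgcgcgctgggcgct
Acvr2b: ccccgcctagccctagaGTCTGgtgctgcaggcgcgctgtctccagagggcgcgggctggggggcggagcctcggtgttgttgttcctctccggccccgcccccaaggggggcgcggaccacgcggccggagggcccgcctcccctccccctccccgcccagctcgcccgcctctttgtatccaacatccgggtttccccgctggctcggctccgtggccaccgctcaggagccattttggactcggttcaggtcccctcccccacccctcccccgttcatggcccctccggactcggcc
The promoters of the receptors were far richer in CpG, with 51 in Acvr1b and 27 in Acvr2b against 5 in Nodal and 7 in Tdgf1. The median over 32851 mouse promoters of the same length was 7. The GC content was 79.7% in Acvr1b, 73.3% in Acvr2b, 54% in Nodal and 41.7% in Tdgf1. The FOXH1 motif AATNCACA, searched on both strands, was found in none of the 4, and in 3.6% of all promoters. CAGAC was found once in Tdgf1, starting at position −113 from the gene start, and once on the opposite strand in Acvr2b, at position −233; 49.6% of all promoters held it. A match is only a run of letters, and binding was not measured. Promoters of Gdf3, Lefty1, Lefty2, Foxh1 and Smad2 were not used here.

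Between ES cells and HB, 4 of the 9 members fell and 1 rose. The ligands Nodal and Gdf3 and both inhibitors fell, Foxh1 rose, the coreceptor kept 37.8% of its RNA without a call, and the receptors changed by less than 0.1 on the log2 scale. A change was called where the adjusted p of edgeR's quasi-likelihood test, adjusted by Benjamini-Hochberg over 22596 genes, was under 0.05 and the change was at least 2-fold. By this rule 17.3% of all genes were called lower and 11.5% were called higher in HB. The median log2 change was −1.40 over the 9 members and 0 over all genes tested.

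Nodal, the ligand (Ensembl ENSMUSG00000037171, chr10:61417972-61425338, plus strand), measured 130.1 and 132 CPM in ES cells. HB libraries had 16.1 and 10.6 CPM, HE1 libraries 1.14 and 6.70, HE2 libraries 2.29 and 0.635, and HP libraries 1.07 and 1.75. Both ES libraries lay far above all others, both HB libraries lay above all later ones, and HE2 and HP overlapped. Nodal fell by 3.29 ± 0.62 (SE) on the log2 scale between ES cells and HB, a 9.81-fold drop (adjusted p = 0.00185 by edgeR, n = 2 libraries per stage). The mean in HB was 10.2% of that in ES cells.

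Gdf3, a ligand related to Nodal that uses the same coreceptor, lies at chr6:122605403-122610087 on the minus strand. It was at 127 CPM in both ES libraries and at 0.727 and 0.113 CPM in HB, with 22 and 4 counts. HE1 held 0.168 and 0.561 CPM, HE2 held 0.213 and 0.508, and HP held 0.958 and 0.731. Almost all of its RNA was lost in the first step, and no library after ES cells reached 1 CPM. In HB it fell by 8.29 ± 0.57 on the log2 scale (adjusted p = 3.17e-06 by edgeR), and the log2 change was −10.07 without HB replicate 1 and −7.43 without HB replicate 2. HB kept 0.331% of the mean ES level of Gdf3, less than of any of the 12 ES cell markers, whose means in HB ran from 0.897% to 264% with a median of 2.53%.

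The inhibitors Lefty1 and Lefty2 lie in tandem at chr1:180935022-180938400 and chr1:180893108-180899103 on the plus strand. The ES libraries held 215 and 222 CPM of Lefty1, HB 3.31 and 1.49, HE1 0.210 and 0.727, HE2 0.274 and 0.413, and HP 0.502 and 0.191. Of Lefty2 the ES libraries held 451 and 472 CPM, HB 54.2 and 43.3, HE1 0.589 and 2.08, HE2 0.396 and 0.190, and HP 0.365 and 0.318. Both were highest in ES cells and under 1 CPM in HE2 and HP, but they parted in HB. There Lefty1 fell by 6.52 ± 0.44 on the log2 scale and Lefty2 fell by 3.24 ± 0.32 (adjusted p = 2.69e-06 and 3.18e-05 by edgeR), so that 1.10% of the ES level of Lefty1 but 10.6% of that of Lefty2 was left. Without HB replicate 1 the log2 change of Lefty1 was −7.16.

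The ratio of Lefty2 to Lefty1, per kb of exons, was 1.41 and 1.43 in the ES libraries and 11 and 19.5 in the HB libraries. HE1 libraries had ratios of 1.89 and 1.93, HE2 libraries 0.973 and 0.311, and HP libraries 0.490 and 1.12, where the counts of Lefty1 were between 5 and 22 in all 6 libraries. This change of the ratio was not tested. The coding sequences of Lefty1 and Lefty2 are 91.8% identical, with 1014 of 1104 bases shared, and 4.80% of the windows of 100 bases in Lefty1 and 3.07% of those in Lefty2 occur in the other gene. Read pairs lying wholly in such windows could not be assigned to 1 of the genes, and the levels of both genes are uncertain to that extent. How many read pairs did so was not tested.

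Tdgf1, which encodes the coreceptor Cripto, lies at chr9:110939603-110946158 on the minus strand. ES libraries contained 866 and 875 CPM and HB libraries 305 and 353, whereas HE1 libraries contained 0.883 and 9.05, HE2 libraries 0.792 and 0.730, and HP libraries 1.48 and 0.381. Both HB libraries lay below both ES libraries, at 37.8% of their mean, but the log2 change of −1.40 ± 0.61 was not called (adjusted p = 0.0924 by edgeR). A call did come from limma-voom (adjusted p = 0.00381), and from edgeR on unfiltered genes, on the 4 ES and HB libraries alone, or without either HE1 library. DESeq2 left Tdgf1 uncalled (adjusted p = 0.292), as did edgeR with total counts (adjusted p = 0.133) or a replicate term (adjusted p = 0.0995). Leaving out any library of ES, HB, HE2 or HP also gave no call, with log2 changes from −1.51 to −1.27. Of the windows of 100 bases in Tdgf1, 4.69% also occur in its processed pseudogene Tdgf1-ps1, whose counts were between 10.6% and 11.2% of those of Tdgf1 in the ES and HB libraries.

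**Figure D2:**
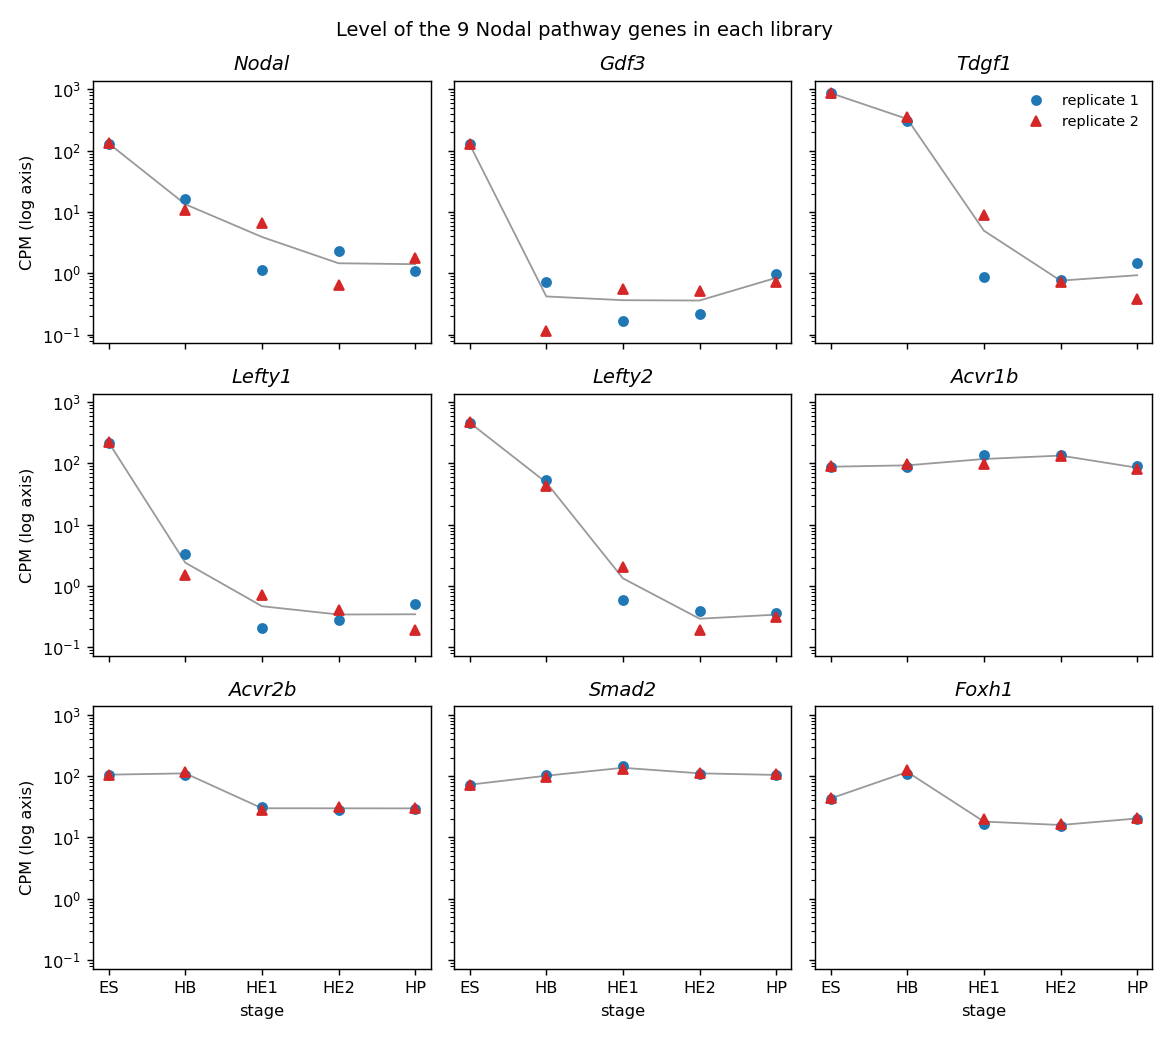
CPM of each gene in the 10 libraries on a log axis, by stage, with circles for replicate 1, triangles for replicate 2 and a line through the stage means. On this axis Nodal, Gdf3 and Lefty1 drop more in HB than in HE1, and Tdgf1 and Lefty2 more in HE1 than in HB, and Acvr1b and Smad2 stay between 71.9 and 144 CPM throughout.

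Foxh1 was the member that rose. This forkhead factor, which recruits SMAD2 and SMAD3 to DNA, lies at chr15:76668225-76669948 on the minus strand. Its levels were 42.2 and 44.1 CPM in ES cells and 106 and 127 CPM in HB, then 16.2 and 20.02 (HE1), 15.4 and 16.5 (HE2), and 19.9 and 20.9 (HP). The libraries of HB lay above all others and those of ES cells above all later ones. Foxh1 rose by 1.44 ± 0.16 on the log2 scale in HB, or 2.70-fold (adjusted p = 5.91e-05 by edgeR), at the stage where the RNA of its ligand stood at 10.2% of its ES level.

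The receptors and Smad2 were measured at levels that left little room for counting error. Acvr1b, the type I receptor ALK4 (chr15:101174067-101213684, plus strand), had 87.0 and 89.5 CPM in ES cells. HB followed with 88.4 and 97.5, HE1 with 137 and 99.3, HE2 with 138 and 130.1, and HP with 89.8 and 80.4. Acvr2b, a type II receptor (chr9:119402118-119434995, plus strand), had 106 and 105 CPM in ES cells and 106 and 116 in HB, but only 31.7 and 28.1 at HE1, 28.3 and 31.4 at HE2, and 28.8 and 30.6 at HP. Their ES and HB libraries overlapped, with log2 changes of 0.07 ± 0.16 and 0.07 ± 0.13 (adjusted p = 0.757 and 0.718 by edgeR). Smad2, which encodes the transducer, had 72.8 and 71.9 CPM in ES cells, and later stages had 106 and 96.8 (HB), 144 and 129.6 (HE1), 110.0 and 112 (HE2), and 103 and 106 (HP). It was lowest in both ES libraries. Its log2 change in HB was 0.49 ± 0.13 (adjusted p = 0.011 by edgeR), which was under 2-fold.

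Between HB and HE1, 5 of the 9 members fell and none rose, against 8.19% of all genes called lower and 12.7% called higher. The coreceptor, both inhibitors, Acvr2b and Foxh1 fell, and from HE1 on no library held more than 9.05 CPM of any ligand, coreceptor or inhibitor among the 9. The median log2 change was −1.89 over the members and 0.04 over all genes. Tdgf1 fell by 6.01 ± 0.76 on the log2 scale, 64.6-fold (adjusted p = 0.00031 by edgeR). Without HE1 replicate 2, the library with more ES cell marker RNA, the log2 change was −8.53, and without HE1 replicate 1 it was −5.23.

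Lefty2 fell by 5.13 ± 0.39 on the log2 scale (adjusted p = 1.57e-05) and Lefty1 fell by 2.26 ± 0.51 (adjusted p = 0.00807), both by edgeR. Without HE1 replicate 2 these changes were −6.36 and −3.47. Without HB replicate 1, that of Lefty1 was −1.66 and no longer called (adjusted p = 0.051). The order of the inhibitors was thus the reverse of that in the first step, Lefty1 having lost more in the first step and Lefty2 more in this one.

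Nodal itself stood lower in both HE1 libraries than in either HB library, with a log2 change of −1.74 ± 0.62 that was not called (adjusted p = 0.0551 by edgeR). This change was −3.55 without HE1 replicate 2 but −1.04 without HE1 replicate 1, and −1.47 and −2.05 without HB replicates 1 and 2. A call came from limma-voom (−2.12, adjusted p = 0.0224), and from edgeR on unfiltered genes or without either HE2 library. DESeq2 left Nodal uncalled (−1.76, adjusted p = 0.131). So did edgeR with total counts (adjusted p = 0.104), a replicate term (adjusted p = 0.0684) or the 4 HB and HE1 libraries alone (adjusted p = 0.0664). Leaving out any ES, HB or HP library also gave no call. In HE1 replicate 1 Nodal was at 0.866% of its mean ES level and in replicate 2 at 5.11%, where the median ES cell marker stood at 0.422% and 3.79%. Tdgf1 was at 0.101% and 1.04%, and Lefty2 at 0.128% and 0.451%. The 5 members with the steepest losses, Nodal, Gdf3, Tdgf1, Lefty1 and Lefty2, were each higher in HE1 replicate 2, by 3.34 to 10.2 times, whereas Acvr1b, Acvr2b and Smad2 were not.

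**Figure D3:**
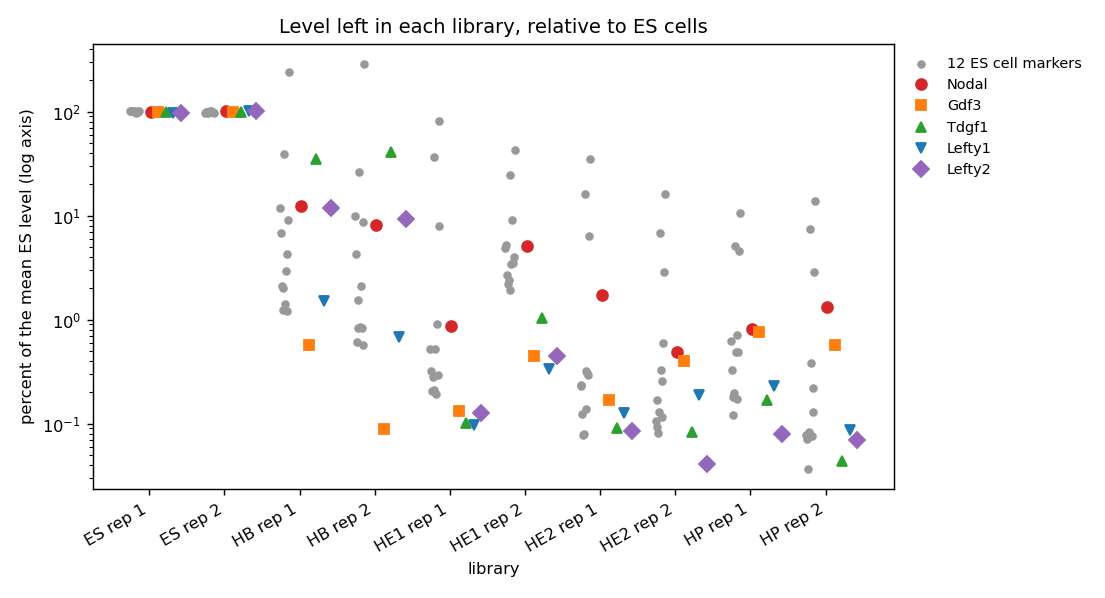
Level in each library as a percentage of the mean ES level, on a log axis, for 5 members (colored symbols) and for the 12 ES cell markers (gray points, 1 per gene). In HB, Tdgf1 (37.8% on average) lies above all markers but Tbx3 and, in replicate 1, Klf4, and Gdf3 (0.331%) lies below all markers in both libraries, and in HE1 replicate 2 the members and most markers lie higher than in HE1 replicate 1.

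Acvr2b fell by 1.89 ± 0.14 on the log2 scale between HB and HE1 (adjusted p = 1.41e-05 by edgeR) and then kept 28.4%, 28.3% and 28.2% of its ES level in HE1, HE2 and HP. Its 6 libraries from HE1 on ran from 28.1 to 31.7 CPM, all below the 4 libraries before. Foxh1 fell by 2.69 ± 0.17 (adjusted p = 5.67e-06 by edgeR) to 42.0% of its ES level. Acvr1b changed by 0.34 ± 0.16 (adjusted p = 0.131) and Smad2 by 0.43 ± 0.13 (adjusted p = 0.0259, under 2-fold), both upwards. Without HE1 replicate 2 the changes of Acvr2b, Foxh1, Acvr1b and Smad2 were −1.80, −2.84, 0.56 and 0.51.

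Between HE1 and HE2, 1 member was called, Lefty2, which fell by 2.22 ± 0.55 on the log2 scale (adjusted p = 0.0302 by edgeR), while 5.39% of all genes were called lower and 3.26% higher. This call rested on HE1 replicate 2, without which the change was −0.99 (adjusted p = 0.265), and on HE2 replicate 2, without which it was −1.78 (adjusted p = 0.23). It was also not called with limma-voom (adjusted p = 0.0889) or with only the 4 libraries compared (adjusted p = 0.137). The values of Tdgf1 and Nodal at this step also moved when HE1 replicate 2 was left out. The log2 change of Tdgf1 was −2.73 ± 0.83 (adjusted p = 0.0537) with all libraries, −0.21 without HE1 replicate 2 and −3.54, then called, without HE1 replicate 1. That of Nodal was −1.45 ± 0.69 (adjusted p = 0.16), and 0.37 and −2.17 in the same order. Of the 12 ES cell markers, 10 were called lower at this step, but 2 without HE1 replicate 2 and 0 without HE2 replicate 2. Between HB and HE1, 1 marker was called lower, and 8 without HE1 replicate 2.

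Between HE2 and HP no member was called by edgeR, and 0% of all genes were. At an unadjusted p under 0.05, 1113 genes were lower and 670 higher, and limma-voom called 27 lower and 35 higher and DESeq2 183 and 101, with none of the 9 members among them in either. Acvr1b was lower in both HP libraries than in both HE2 libraries, with a log2 change of −0.66 ± 0.16 (adjusted p = 0.186), and Gdf3 was higher in both, with 1.24 ± 0.63 (adjusted p = 0.715). The levels of Gdf3 in HP were still under 1 CPM.

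**Figure D4:**
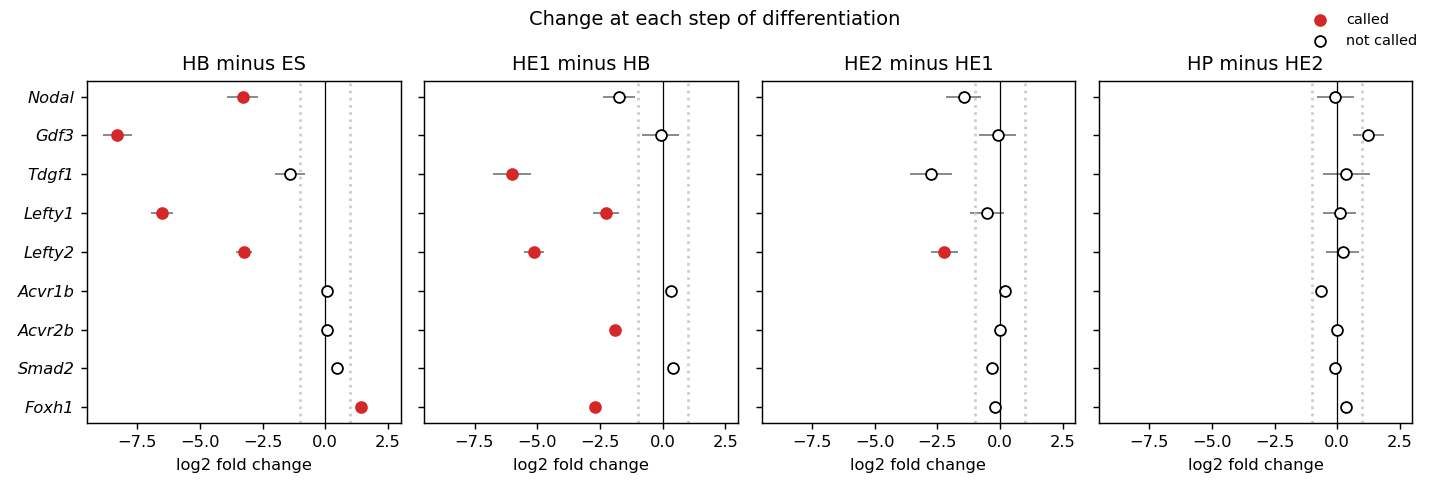
Log2 change of each gene at the 4 steps, with bars for the standard error (SE); filled points were called and open points were not, and dotted lines mark 2-fold. The calls move from 4 lower and 1 higher in HB to 5 lower in HE1, 1 in HE2 and 0 in HP.

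Over the whole course from ES cells to HP, 7 of the 9 members fell and none rose, against 21.9% of all genes called lower and 16.7% higher. The median log2 change was −6.56 over the members and −0.01 over all genes. The log2 changes of ligands, coreceptor and inhibitors were −6.56 ± 0.75 for Nodal, −7.21 ± 0.52 for Gdf3, −9.79 ± 0.91 for Tdgf1, −9.21 ± 0.52 for Lefty1 and −10.37 ± 0.48 for Lefty2, with adjusted p-values by edgeR of 4.66e-05 or less. Without HP replicate 1 the change of Tdgf1 was −11.14 and that of Lefty1 was −10.14, and without HP replicate 2 that of Tdgf1 was −9.19. None of these 5 genes was at 0 in any library, and in HP they had between 6 and 65 counts.

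Acvr2b fell by 1.83 ± 0.14 (adjusted p = 3.17e-06) and Foxh1 fell by 1.08 ± 0.16 (adjusted p = 0.000238) by edgeR. With library sizes left unscaled Foxh1 changed by just under 2-fold and was not called. Acvr1b in HP overlapped ES cells, at −0.05 ± 0.16 (adjusted p = 0.809). Smad2 was 0.53 ± 0.13 above ES cells on the log2 scale in HP (adjusted p = 0.00523), under 2-fold. All ES cell markers, 12 of 12, were called lower over the same course, with a median log2 change of −8.09.

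A list of genes known as targets of Nodal signaling in the mesendoderm went the other way at first. All 11 tested members of this list rose between ES cells and HB, where 11.5% of all genes were called higher. Of these, 9 fell again between HB and HE1, where 8.19% of all genes were called lower. Nodal, Lefty1 and Lefty2, also known targets, are not on this list and fell in HB. All 6 FLK1+ mesoderm markers were called higher in HB as well. The part of Nodal signaling in these rises was not tested. Eomes, a T-box factor of the primitive streak, climbed from 5.85 and 5.48 CPM in ES cells to 546 and 630.3 CPM in HB and came down to 5.43 and 11 CPM at HE1. Mixl1, a streak homeobox gene, was at 1.19 and 1.66, 332 and 406, and 0.631 and 1.26 CPM in the same stages. Lhx1, a homeobox gene of the anterior streak, was at 0.408 and 0.172, 255 and 235, and 0.336 and 5.38 CPM. In each, both HB libraries lay above all others.

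The log2 rises were 6.70 ± 0.44 for Eomes, 8.04 ± 0.33 for Mixl1 and 9.61 ± 0.89 for Lhx1, and the changes to HE1 were −6.15 ± 0.43, −8.57 ± 0.34 and −6.37 ± 0.74, each called by edgeR. Without HE1 replicate 2 the latter were −6.76, −9.18 and −9.49, and without HE1 replicate 1 that of Lhx1 was −5.55. The rise of Lhx1 in HB was 10.46 without ES replicate 1. Cer1, a secreted inhibitor of Nodal and BMP, had no count in ES cells and was at 2.61 and 3.04 CPM in HB, at least 40.6-fold higher when ES cells are set at the floor of 3 counts per library. The median log2 change of the list was 5.84 in HB, or 5.34 with Cer1 at this bound, and −5.50 in HE1. In HB, Nodal RNA was at 10.2% and Foxh1 RNA at 270.5% of the ES level. Foxa2, a forkhead factor of the endoderm, had means of 1.70 CPM in HB and 1.65 CPM in HE1 and was not called between them. Sox17, an endoderm and endothelial factor, was the member of the list that rose again in HE1, from 14.6 and 12.4 to 96.3 and 77.3 CPM. In HP, 6 of the 11 were called lower than in ES cells, and Sox17 and Foxa2 were called higher. Of all genes, 21.9% and 16.7% were called lower and higher. Among the 6, Fgf8 and T had log2 changes of −3.35 and −2.94. Gsc, also among them, had 1 and 0 counts in the HP libraries, under the floor of 3 counts, so it gives no exact fold there. Without HP replicate 1 the fall of T was larger by over 1.5 times. In a repeat with each library left out, chosen after seeing the data, the 11 calls in HB and the 9 in HE1 stood each time, and the rise of Sox17 in HE1 was not called when either HB library was left out. In HP, the call of Foxa2 was lost when any library of ES cells or HP was left out, that of Mixl1 without ES replicate 2 or HP replicate 2, that of Eomes without HP replicate 2 and that of Wnt3 without HP replicate 1.

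Among the other ligands and the convertases that cleave the Nodal precursor, 3 of 8 fell and 2 rose in HB, where 17.3% and 11.5% of all genes were called lower and higher. Bmp4, a mesoderm-inducing ligand of the BMP branch, was 1 of those that rose, from 31.3 and 31.0 CPM in ES cells to 89.7 and 141 CPM in HB. The convertases exchanged places. Pcsk6, known as PACE4, was at 105 CPM in both ES libraries, 5.09 and 4.82 in HB, and between 0.945 and 3.01 later, whereas Pcsk5 went from 0.568 and 1.00 CPM in ES cells to 86.7 and 92.8 in HB and 18.5 and 18.8 in HP. The log2 changes in HB were −4.41 ± 0.31 and 6.88 ± 0.33 (adjusted p = 3.49e-06 and 5.56e-07 by edgeR). Furin was not called in HB and rose by 1.49 ± 0.21 in HE1. Inhbb and Inhba, which encode activin subunits, had log2 changes of −4.44 ± 0.64 and −4.38 ± 0.69 in HB, both called. Inhba rose again in HE1 by 5.61 ± 0.69, or 4.59 without HE1 replicate 2, and was not called between HP and ES cells, with 1.17 ± 0.49 (adjusted p = 0.0693 by edgeR), though it was when either HE1 library was left out (adjusted p = 0.012 and 0.0145), while Inhbb changed by −7.44 ± 0.80 over that course. Gdf1, a ligand that pairs with Nodal, was not called in HB and fell by 3.09 ± 0.48 in HE1, with a log2 change of −3.80 without HE1 replicate 2.

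Of 5 other receptor genes, Cfc1, which encodes Cryptic, a coreceptor related to Cripto, rose by 4.51 ± 0.61 on the log2 scale in HB (adjusted p = 0.000235 by edgeR), from 0.993 and 1.00 CPM to 20.002 and 25.7 CPM. In HE1 it had 3 and 24 counts. It fell by 5.57 ± 0.67 at that step, and the change was −7.46 without HE1 replicate 2 and −4.89 without HE1 replicate 1. Acvr2a, the other type II receptor, was at 35.1 and 36.6 CPM in ES cells and 15.6 and 17.7 in HP. It fell by 1.11 ± 0.18 on the log2 scale. Acvr1c, the type I receptor ALK7, had no count in ES cells and 8 and 13 counts in HP, at least 4.28-fold higher when ES cells are set at the floor. Its call was lost when either ES library was left out. Tgfbr1, the type I receptor ALK5 for TGF-beta, was at 83.1 and 87.8 CPM in ES cells and 154 and 140.1 in HP, a log2 change of 0.78 ± 0.18 that was under 2-fold (adjusted p = 0.00436).

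Among 7 other extracellular inhibitors, Cer1, Fst and Inha rose in HB and Nomo1 fell, where 11.5% and 17.3% of all genes were called higher and lower. Fst, which binds activins, had 6.03 and 7.06 CPM in ES cells against 35.1 and 23.3 in HB, 9.88 and 7.07 at HE1 and 0.753 and 1.08 at HP. It rose by 2.16 ± 0.48 in HB, and from ES cells to HP it fell by 2.84 ± 0.53. Tmeff1, a transmembrane protein with follistatin domains, was not called in HB and changed by −2.31 ± 0.20 from ES cells to HP, and Fstl3, a relative of Fst, changed by −1.47 ± 0.53. The call of Inha in HB was lost when any of the ES and HB libraries was left out, and that of Fstl3 in HP when any of the ES, HB and HP libraries was left out. In HP 3 of the 7 were called lower and none higher, where 21.9% and 16.7% of all genes were. Cer1 had no count in ES cells and at most 1 in an HP library, so it gives no fold there.

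Of the SMADs and their regulators, 1 of 14 rose in HB and none fell, against 11.5% and 17.3% of all genes, and the median log2 change was 0.11. The gene that rose was Smurf2, which encodes a ubiquitin ligase, by 1.26 ± 0.16. Smad3 was at 26.7 and 26.3 CPM in ES cells, 44.4 and 49.3 in HB and 72.1 and 61.0 in HP, 1.33 ± 0.14 above ES cells by then (adjusted p = 3.18e-05 by edgeR). Smad4, the common partner, was at 90.8 and 92.4 CPM in ES cells, 177 and 189 in HB and 105 and 108 in HP, and its log2 change of 1.00 ± 0.14 in HB stayed just short of 2-fold. It was called when either ES library, HB replicate 1 or HE1 replicate 1 was left out. By HP 3 of the 14 fell and 2 rose, Smad3 and Smurf2, which is near the 21.9% and 16.7% of all genes. The genes that fell were Tgif1, a SMAD corepressor, with a log2 change of −3.03 ± 0.22, and the feedback inhibitors Pmepa1 and Smad7, with −2.25 ± 0.65 and −1.54 ± 0.29. The call of Pmepa1 was lost when either HP library was left out, and that of Smurf2 when ES replicate 2 or HP replicate 2 was. Pmepa1 was at 17.5 and 18.6 CPM in ES cells and at 10.0 and 44.9 CPM in HE1.

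**Figure D5:**
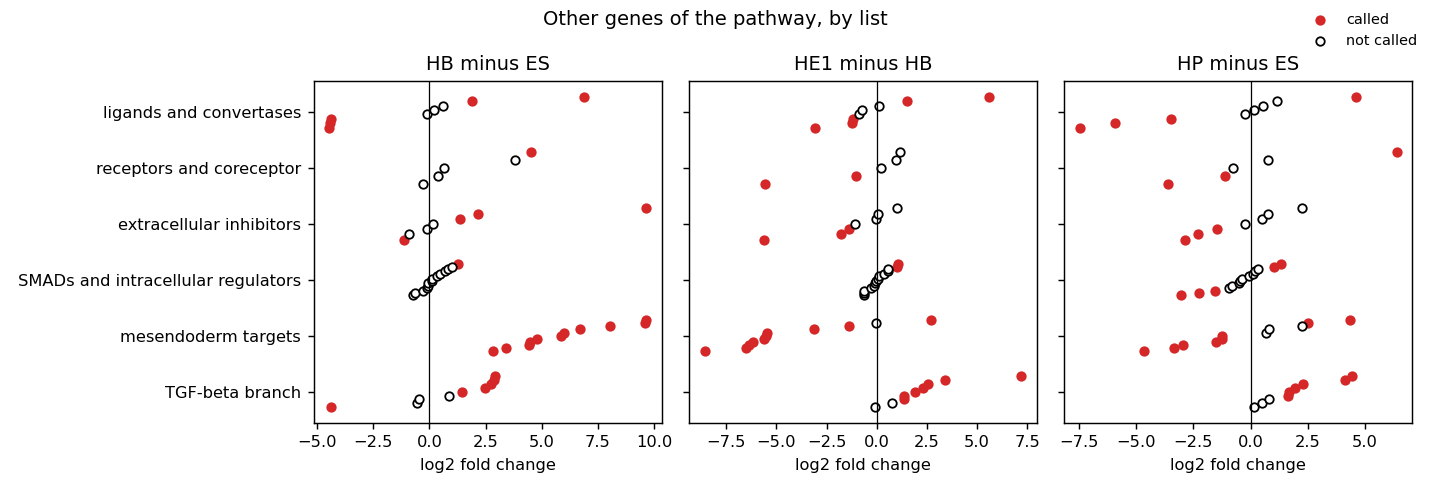
Log2 change of the other pathway genes by list, 1 point per gene, for HB minus ES, HE1 minus HB and HP minus ES. Filled points were called and open points were not. The fitted values of Cer1 and Acvr1c against ES libraries at 0, and of Gsc in HP at 1 and 0 counts, are not bounds. All 11 mesendoderm targets lie to the right in HB and 9 are called to the left in HE1, while 13 of 14 SMADs and regulators are open in HB.

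Genes of the TGF-beta branch, which shares SMAD2 and SMAD3 with Nodal, were also measured. Of 9 genes, 5 rose in HB, against 11.5% of all genes, and 7 in HE1, against 12.7%, and in HP 6 were called above ES cells, against 16.7%. With each library left out in turn these counts in HE1 and HP were 5 to 7 and 4 to 6, with Tgfb3 and Acvrl1 losing their calls. Tgfb1, a ligand, had 12.7 and 14.1 CPM in ES cells, then 84.8 and 95.8 (HB), 93.4 and 75.1 (HE1), 191 and 292 (HE2), and 331 and 252 (HP). It was 4.44 ± 0.25 above ES cells on the log2 scale in HP (adjusted p = 4.99e-07 by edgeR). Tgfbr2, the type II receptor of TGF-beta, was at 3.32 and 3.24 CPM in ES cells, 124 and 60.8 in HE1, and 56.2 and 56.8 in HP, an increase of 4.10 ± 0.31 by HP.

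Genes whose log2 CPM were most alike to those of the members were sought among 12235 genes with at least 9 CPM in 1 stage, over 10 libraries that fall into 5 stages. The measure was Pearson's r, as a description. Nodal was most like AC079441.1 and Epb41l4a, both with r = 0.9956, and Cdcp1, with r = 0.9921. Lefty2 was most like Sik1 (r = 0.9976), and Tdgf1 most like Tenm4 (r = 0.998). Tenm4, which encodes a teneurin, had means of 157.7 CPM in ES cells, 91.1 in HB and 6.06 in HE1, so that like Tdgf1 it kept more of its RNA in HB than in HE1. No member was among the 3 genes most like Nodal, for which Lefty2 ranked 121 with r = 0.968.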

How the data were processed

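Nuclear RNA-seq counts of 10 libraries, 2 for each of 5 stages, were used. The deposited counts had been made by the authors with Trimmomatic, HISAT2 (v2.2.1) on mm10 and featureCounts (v2.0.1) on Ensembl 102, per the file headers and the processing notes. Read pairs were counted on exons in the reverse-stranded mode, those overlapping several genes on each gene, and multi-mapping reads were not counted. A second deposited table gives 15686 genes 1 score per stage, which the authors made by averaging normalized CPM over libraries; it entered no test here.

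Of 55487 genes, 39019 had a count and 22596 passed filterByExpr. Library sizes were scaled with TMM (factors 0.954 to 1.13), and a quasi-likelihood model with stage as its only term was fitted to the 10 libraries (edgeR v4.0.16, R v4.3.3), leaving 5 residual degrees of freedom, with a common biological coefficient of variation of 0.226. SE is the size of the log2 change over the square root of F. Log2 CPM used a prior count of 2. Adjusted p-values are Benjamini-Hochberg values over 22596 genes, and genes were called at under 0.05 and at least 2-fold. Counting error between the libraries of a stage was exceeded 3.16 to 67.9 times by chi-square per degree of freedom, and no pair of libraries was identical.

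The members and gene lists were chosen with earlier results of these data known. All members were named, and from each other list up to 4 called genes with the largest log2 change in HB and in HP against ES cells, plus Smad3, Smad4, Tgfbr1, Acvr1c and Acvr2a. Some results under this rule are not reported here. Genes most alike were the 3 with the highest r for Nodal, Lefty2 and Tdgf1 among those with a mean of 9 CPM in any stage. Furin, Foxa2, Wnt3, the ES cell markers given singly and the neighboring genes stand outside this rule and were chosen after their values were seen. Alternatives were limma-voom (v3.58.1), DESeq2 (v1.42.0), total counts, no filter, only the 4 libraries compared, a replicate term, a 4-fold or no fold threshold, and each library left out, the last also for the other lists and their genes, which was chosen after seeing the data. Promoters came from a RefSeq table on GRCm38.p6, in which 4 of the 9 members were found. Python (v3.11.15) was used for levels, sequences and figures.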

Additional observations from a re-analysis of the deposited data

How the results depend on the processing

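Of 45 member changes, 18 were called. Under 288 alternatives of tool, scaling, filter and libraries none of these turned direction, and 3 of the 18 lost their call under 6 of them; the cause was not tested. These were Lefty1 between HB and HE1 and Lefty2 between HE1 and HE2, described above, and Foxh1 between ES cells and HP, with −0.996 under total counts. With a threshold of 4-fold, 4, 4, 1, 0 and 5 members were called in the 5 comparisons, and with no fold threshold 6, 6, 1, 0 and 8. The count of 1 member between HE1 and HE2 was 0 with limma-voom and with only the 4 libraries compared, 3 without the filter, and 0 to 3 with a library left out, and the count of 0 between HE2 and HP was 1 without the filter (Gdf3). Of the changes not called, some turned sign. With limma-voom these were Gdf3 (0.20, HE1 minus HB; 0.0137, HE2 minus HE1), Acvr2b (0.00069, HE2 minus HE1), Nodal and Lefty1 (0.13 and −0.0543, HP minus HE2). Without the filter it was Acvr2b (0.0144, HE2 minus HE1), and with total counts Acvr2b (0.0615, HP minus HE2) and Acvr1b (0.03005, HP minus ES). With a library left out, Gdf3 ran from −1.23 to 1.67 between HB and HE1. Between HE1 and HE2 the ranges were −2.63 to 0.37 for Nodal, −0.82 to 1.07 for Gdf3, −1.05 to 0.69 for Lefty1, −0.0293 to 0.46 for Acvr1b and −0.0889 to 0.11 for Acvr2b. Between HE2 and HP they were −0.72 to 1.12 for Nodal, −0.99 to 0.96 for Tdgf1, −0.83 to 0.55 for Lefty1, −0.20 to 0.84 for Lefty2 and −0.0797 to 0.0756 for Acvr2b, and from ES cells to HP −0.14 to 0.0258 for Acvr1b. With the replicate number as a block, 5, 5, 1, 0 and 7 members were called, as without it. Deviations of same-numbered libraries correlated at −0.316 to 0.213 between stages. With 2 libraries per stage this cannot show whether same-numbered libraries shared a culture. Over all genes, 737 were higher and 1217 lower in HE2 than in HE1, against 954 and 2864 without the filter, 364 and 171 with only the 4 libraries compared, 1368 and 2927 without HE1 replicate 1, 368 and 260 without HE1 replicate 2, 1089 and 2118 without HE2 replicate 1, and 324 and 98 without HE2 replicate 2. In HP against HE2, 0 genes became 145 higher and 389 lower without the filter and 50 and 475 without HE2 replicate 2. At the levels of HE1 to HP, a few counts set the values of Gdf3 and Lefty1.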

Other observations

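The nearest tested protein-coding gene on each side of the 9 members, 17 different genes, was followed over the same stages. This comparison was chosen after the values were seen. In HB 8 of the 17 were called lower than in ES cells and 1 higher by edgeR, where 17.3% and 11.5% of all genes were, and in HP 9 were lower and 1 higher, where 21.9% and 16.7% were. Lrrc2, 5.39 kb from Tdgf1, had mean levels of 47.5 CPM in ES cells, 3.56 in HB and 0.0705 in HP. Its log2 change from ES cells was −3.74 ± 0.33 (SE, n = 2 libraries per stage) in HB. It was called lower in HP, but its level there was at the floor of detection and gives no exact fold. Tdgf1 itself changed by −1.40 in HB and −9.79 in HP. On its other side Als2cl changed by −1.81 ± 0.31 and −3.02 ± 0.33.

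Beside Gdf3, Dppa3, a germ cell and pluripotency gene 16.3 kb away, was at 15.3 CPM in ES cells and changed by −5.45 ± 1.08 in HB. In HP its mean of 0.0342 CPM lay under the floors of 0.0684 and 0.0954 CPM, so it gives no exact fold there. It was called lower in HP. Apobec1, an RNA-editing cytidine deaminase gene 2.96 kb away on the other side, also fell in HB, from 6.88 to 0.179 CPM, but stood at 7.27 CPM in HP, where Gdf3 stayed under 1 CPM. Tmem63a, 3.94 kb from Lefty1, changed by −1.83 ± 0.20 in HB and −1.60 ± 0.20 in HP, where Lefty1 changed by −6.52 and −9.21. Kifc2, 0.029 kb from Foxh1, was not called in HB (−0.85 ± 0.30), where Foxh1 rose, and fell by 1.61 ± 0.31 in HP. Acvrl1, 28.7 kb from Acvr1b, was the neighbor called higher, with 2.86 ± 0.65 in HB and 1.69 ± 0.64 in HP.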
